A study of Mus musculus with 8 samples.

Results

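The baseline microRNA (miRNA) profile of the mouse kidney was read from the 4 control arrays of a series of 8. The series studied kidney injury by tacrolimus, a calcineurin inhibitor given to prevent graft rejection. All 8 samples were total RNA of whole kidney from CD-1 mice, an outbred stock, labelled with Cy3 and hybridised to 1-colour Agilent miRNA arrays. The 4 control samples (control 1 to control 4) came from mice given physiological serum, and each had an input of 0.1 µg RNA with a RIN (RNA integrity number) of 9. The other 4, from mice given tacrolimus at 1 mg/kg per day for 28 days, were not analysed here. The labels number the controls as replicates but do not say that each was a separate mouse, so the spread given here is the spread between these 4 samples and may be partly technical. With 1 group there was no comparison between conditions, and all values are descriptions without a test.

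miRNAs are short RNAs cut from hairpin precursors by Drosha and Dicer. Loaded into an Argonaute protein, a miRNA pairs with target mRNAs mainly through its seed, the bases just after its 5′ end, so that miRNAs with the same seed have overlapping targets. Whole kidney is mostly tubule epithelium, with capillary and glomerular endothelium, smooth muscle, interstitial cells and the blood left in the vessels. Fewer cells of a type and less of a miRNA per cell cannot be told apart in such samples.

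Each array carried 1023 mouse miRNA names on 2645 probes, and 40920 spots. The measure was the total gene signal, an intensity in arbitrary units that sums the signals of the detected probes of a name. Names had 1 to 4 probes of 9 to 24 bases, which bind with different strength. The order below is therefore an order of signal, not of molecules.

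The sequences of the miRNAs that lead the profile, of the other let-7 members and of the marker miRNAs are shown first, since the strongest signal came from a few groups with a shared seed. They are the mature sequences of RefSeq (GRCm38.p6), matched by name for 830 of the 1023 names and for 149 of the 181 names detected on all 4 arrays. Capitals mark the seed, bases 2 to 8.
let-7c-5p: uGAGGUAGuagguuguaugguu
let-7a-5p: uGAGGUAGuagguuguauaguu
let-7f-5p: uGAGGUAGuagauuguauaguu
let-7b-5p: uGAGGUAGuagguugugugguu
let-7g-5p: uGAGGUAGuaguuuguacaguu
let-7d-5p: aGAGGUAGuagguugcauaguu
let-7i-5p: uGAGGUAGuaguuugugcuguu
let-7e-5p: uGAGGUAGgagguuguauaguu
miR-29a-3p: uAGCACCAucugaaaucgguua
miR-29c-3p: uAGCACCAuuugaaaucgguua
miR-29b-3p: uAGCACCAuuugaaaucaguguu
miR-30a-5p: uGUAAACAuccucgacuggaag
miR-21a-5p: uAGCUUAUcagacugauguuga
miR-26a-5p: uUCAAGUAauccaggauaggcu
miR-22-3p: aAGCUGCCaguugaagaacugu
miR-126a-3p: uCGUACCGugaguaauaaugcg
miR-451a: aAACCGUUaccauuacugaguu
miR-192-5p: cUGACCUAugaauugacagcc
miR-204-5p: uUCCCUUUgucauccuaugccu
miR-200b-3p: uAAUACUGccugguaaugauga

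A signal above background was seen for 246 of the 1023 names (24.0%) in at least 1 control kidney, and for most of those in all 4. The scanner software scored a name as detected when a probe of it was brighter than 3 times its error. Control 1 had 223 detected names (21.8%), control 2 had 231 (22.6%), control 3 had 183 (17.9%) and control 4 had 221 (21.6%). Control 3 stood below the other 3 arrays. On all 4 arrays 181 names were detected (17.7%), on 3 arrays 29, on 2 arrays 11, on 1 array 25, and on none 777 (76.0%). Of the 29 names missing on a single array, 28 were missing on control 3. Control 3 was also the dimmest array, with a summed signal of 156942 against 228041, 245404 and 298066 on controls 4, 2 and 1, and its labelling spike-in was the lowest, at 3.21 on a log10 scale against 3.34 to 3.44. How much of the shorter list came from the lower signal was not tested. Without control 3, 209 names were detected on all remaining arrays.

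The border of detection ran through well-known miRNAs. The dimmest name detected on all 4 arrays was miR-182-5p, a member of the sensory-organ cluster of miR-183, at 15.3, 11.8, 10.7 and 9.79 on controls 1 to 4. It was followed by miR-874-3p, miR-484, miR-326-3p and miR-712-5p, with mean signals of 13.5 to 15.1. The brightest name that missed an array was miR-342-3p, a lymphocyte miRNA, at 77.3, 12.4 and 41.0 on controls 1, 2 and 4 and at the floor value of 0.100 on control 3. The next were miR-1982-5p, miR-3081-5p, miR-1897-5p and miR-1897-3p, with mean signals of 19.9 to 23.8, and all of these were also missed on control 3. Between the dimmest and the brightest name detected on all 4 arrays the mean signal ran from 11.9 to 72255, a 6077-fold range, with a median of 154. These 181 names held 99.8% of the summed signal.

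The brightest name was one that carries a release mark, a suffix such as _v16.0 that the array gives to 27 names, and 10 of these were detected on all 4 arrays. miR-1937b_v16.0 read 67006, 82233, 59718 and 80065 on controls 1 to 4, which was 22.5%, 33.5%, 38.1% and 35.1% of the summed signal (32.3% ± 6.80, SD, n = 4). Its share was lowest on control 1, the brightest array. miR-720_v18.0 followed at 9017, 10464, 7383 and 9518, or 4.04% ± 0.716 (SD, n = 4), and miR-5097_v19.0 and miR-1937c_v16.0 held the ranks 34 and 36. As background, miR-720 was taken out of the miRNA registry as a likely fragment of a transfer RNA.

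The probes of these bright marked names share a feature, for which 3 are shown with the first 3 bases in capitals, as the array files give them, 5′ to 3′.
miR-1937b_v16.0 probe: TGGgggctcgtcc
miR-720_v18.0 probe: TGGaggccccag
miR-1937c_v16.0 probe: TGGgggctcttccg
All probes of the 4 brightest marked names began with TGG, the complement of an RNA that ends in CCA. This held for 5 of the 10 marked names detected on all 4 arrays. Among all 1023 names it held for 18 (1.76%), and among the 171 unmarked names detected on all 4 arrays for 2 (1.17%). CCA is the end that every mature transfer RNA carries. Which RNA these probes bound was not tested. The array files list 6 places in mm9 for the probe of miR-1937b_v16.0, on chromosomes 1, 3, 12, 16 and 17.

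The share of the marked names varied between arrays. The ratio of control 3 to control 1 had a median of 0.403 over the 171 unmarked names (range 0.0939 to 0.765), and of 0.554 over the 10 marked names (range 0.357 to 0.891), and the ranges overlapped. Together the 27 marked names took 27.2%, 39.4%, 44.6% and 41.0% of the summed signal on controls 1 to 4 (38.1% ± 7.53, SD, n = 4). Shares of the whole sum therefore shift with them. From here on a share is a percent of the summed signal of the 996 unmarked names unless the text says "of all names"; this second base was added after the values were seen.

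**Figure D1:**
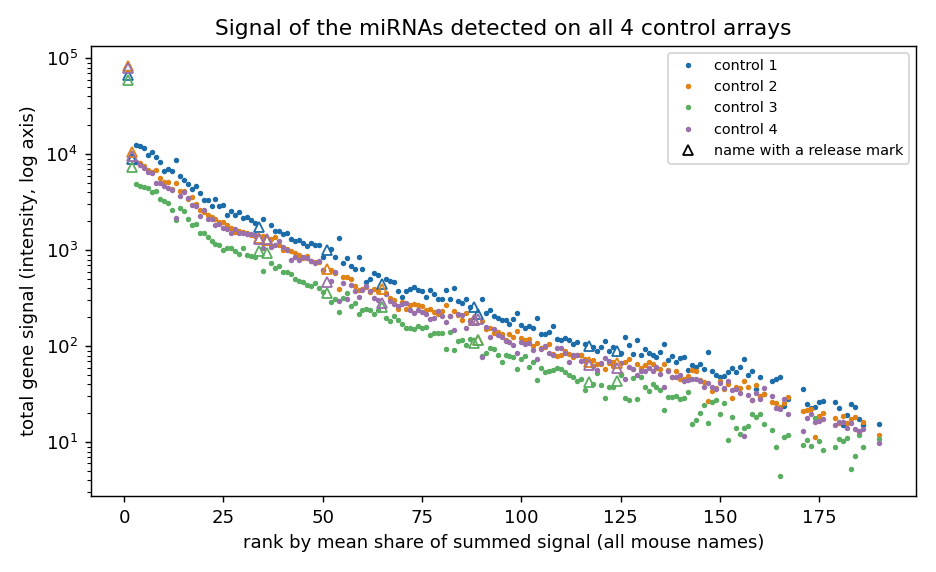
Total gene signal (intensity, log axis) of the 181 names detected on all 4 control arrays against their rank by mean share of all names, with a colour for each array and open triangles for names with a release mark. miR-1937b_v16.0 lies far above the rest at rank 1, and control 3 (green) runs below the other arrays for most names.

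Without the marked names the signal was spread over a small group of strong miRNAs and a long tail, in nearly the same proportions on each array. The brightest miRNA, let-7c-5p, held 5.81% ± 0.292 (SD, n = 4), the 5 brightest held 26.1% ± 0.673, the 10 brightest 44.1% ± 0.736 and the 50 brightest 89.7% ± 0.340. It took 12 or 13 miRNAs to reach 50% of the signal, 50 to 52 to reach 90% and 72 to 76 to reach 95%. Of all names, the 10 brightest held 59.7% ± 4.88, and 40 to 49 names held 90%. Between arrays, the log2 signals of the 181 names correlated with Pearson's r of 0.986 to 0.995, across names that are not independent of each other. Of the 20 brightest miRNAs of any array, 21 in number, 19 were among the 20 brightest on every array.

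let-7 members took the first 3 places. let-7 is a family of old and highly conserved miRNAs that hold back growth and are held back themselves by LIN28. let-7c-5p read 12449, 8363, 4896 and 8398 on controls 1 to 4, let-7a-5p read 12289.5, 8033, 4707 and 7691, and let-7f-5p read 11650.3, 7579, 4577 and 7116. On each array let-7c-5p stood above let-7a-5p and let-7a-5p above let-7f-5p, although the ranges of the shares of the first pair overlapped. By the brightest probe of each name, let-7f-5p came before let-7a-5p in the order of mean share. These sequences differ from let-7a-5p by 1 base each, and no target of a let-7 probe lay whole within another mature sequence. Cross-binding between the members was not tested.

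miR-29a-3p, miR-21a-5p and miR-22-3p were also among the 10 brightest. miR-29a-3p, whose targets include collagen genes, read 9879, 6902, 4403 and 6460.2 on controls 1 to 4, a share of 4.77% ± 0.222 (SD, n = 4). miR-21a-5p, an injury-induced miRNA encoded within Vmp1 on chromosome 11, read 9357, 6880.2, 4152 and 5071, a share of 4.37% ± 0.446. Its share on control 4 lay below that on the other 3 arrays. miR-22-3p, encoded on chromosome 11 as well, held 3.43% ± 0.295.

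Most neighbours in the order could not be placed by 4 arrays. Among the 29 neighbouring pairs of the 30 brightest miRNAs, the ranges of the shares overlapped in 25, and the same member was ahead on all 4 arrays in 8. The 4 pairs that stood apart were let-7a-5p above let-7f-5p, let-7f-5p above miR-29a-3p, miR-29c-3p above miR-126a-3p and let-7d-5p above miR-107-3p. The other miRNAs among the 30 brightest were let-7b-5p, let-7g-5p, let-7i-5p, miR-29b-3p, miR-30a-5p, miR-30c-5p, miR-30e-5p, miR-26a-5p, miR-26b-5p, miR-192-5p, miR-451a, miR-200b-3p, miR-200a-3p, miR-429-3p, miR-16-5p, miR-15a-5p, miR-24-3p, miR-23a-3p, miR-23b-3p and miR-125b-5p. With the processed signal of the brightest probe of each name in place of the sum over probes, 8 of the 10 and 29 of the 30 brightest stayed the same. By that measure the order began with let-7c-5p, let-7f-5p and let-7a-5p, so the place of let-7a-5p above let-7f-5p depended on the measure.

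**Figure D2:**
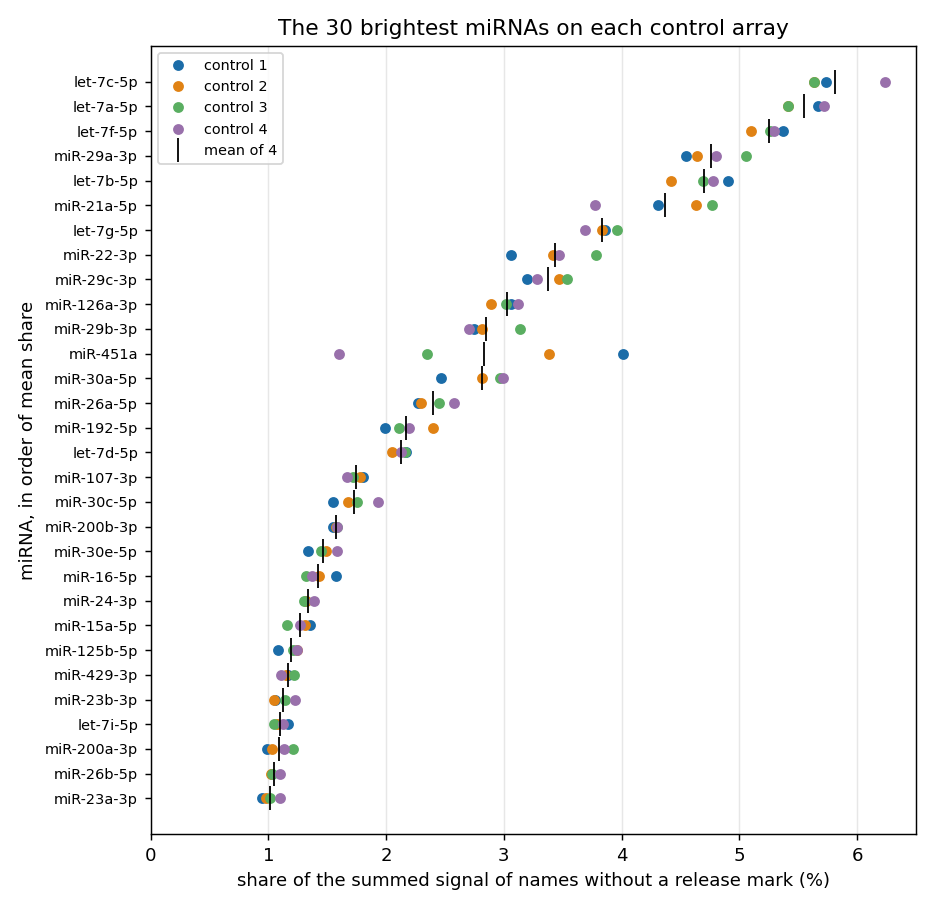
Share of the summed signal of names without a release mark (%) for the 30 brightest miRNAs, with a dot for each control array and a bar for the mean of 4. Points of neighbouring miRNAs mostly overlap, and miR-451a spans the widest range, 1.60% to 4.01%.

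Grouped by seed, 6 sequences of 7 bases accounted for 58.2% of the signal. The 149 miRNAs detected on all 4 arrays with a sequence had 105 different seeds. The seed GAGGUAG of let-7 and miR-98 held 29.6%, 28.2%, 28.9% and 29.7% on controls 1 to 4 (29.1% ± 0.704, SD, n = 4), with 9 of its 10 names detected on all 4 arrays. The brightest of these, let-7c-5p, gave 19.9% of the signal of the group, so the let-7 signal was shared among many members. The seed AGCACCA of miR-29 held 10.5%, 10.9%, 11.7% and 10.8% (11.0% ± 0.528), and miR-29a-3p alone gave 43.4% of it. miR-29a-3p and miR-29c-3p differ by 1 base.

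The other 4 leading seeds were each below these on every array. GUAAACA, the seed of miR-30, a family abundant in podocytes and tubules, held 6.01% ± 0.483 (SD, n = 4) through miR-30a-5p, miR-30c-5p and miR-30e-5p. miR-30b-5p and miR-30d-5p, at 0.713% and 0.272%, had no matched sequence and are not in that sum. By the brightest probe the sum was 4.38% of all names in place of 3.70%, and 3.78% with normexp background correction. AGCUUAU held 4.37% ± 0.446 through miR-21a-5p as its only name on the array. AGCAGCA, the seed of the cell-cycle regulators miR-15 and miR-16, held 4.28% ± 0.292 over 6 miRNAs, and UCAAGUA held 3.44% ± 0.177 through miR-26a-5p and miR-26b-5p. AGCUGCC of miR-22-3p came next at 3.43% ± 0.295 and was ahead of UCAAGUA on controls 2 and 3. The UCAAGUA sum of 2.13% of all names became 1.68% with normexp background correction. By the brightest probe with outlier spots kept it was 1.91%. Of all names, the 6 leading seeds together held 36.0%.

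miR-192-5p, the first marker, is made in tubule epithelium and is bound up with TGF-beta signalling there. It read 4327, 3572, 1839 and 2943 on controls 1 to 4, a share of 2.17% ± 0.172 (SD, n = 4) and rank 15 of the unmarked names. Its cluster partner miR-194-5p read 1568, 1376, 651 and 1136 (0.810% ± 0.0931). The 2 are encoded next to each other on chromosome 19, miR-194-5p also on chromosome 1, and both were highest in share on control 2. miR-215-5p, which has the seed of miR-192-5p and differs from it by 3 bases, was detected on no control array.

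miR-204-5p, the second marker, is an epithelial miRNA encoded within Trpm3. It read 113, 57.8, 28.9 and 74.7, a share of 0.0449% ± 0.0106 (SD, n = 4) and place 121 among all names. By the brightest probe its place among the unmarked names was 105 or 106 in place of 115, and with normexp background correction its share of all names was 0.0438% in place of 0.0282%. Its signal was below that of the other 3 markers on every array. miR-211-5p, which differs from it by 1 base, was detected on none. miR-211-3p, from the same hairpin as miR-211-5p but not in the tubule list, was detected on all 4 arrays. Its mean signal was 65.2, beside 68.6 for miR-204-5p. Together 4 of the 6 names of the tubule list were detected on all 4 arrays, where 17.7% of all names were, with a summed share of 2.78%, 3.38%, 2.91% and 3.10%.

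The miR-200 family, which keeps epithelial cells epithelial by repressing ZEB1 and ZEB2, was detected in all 5 names on all 4 arrays, beside 17.7% of all names. It had a summed share of 4.02%, 4.04%, 4.32% and 4.19% (4.14% ± 0.139, SD, n = 4). miR-200b-3p led at 3369.9, 2328, 1372 and 2122, and its share of 1.57% ± 0.0110 hardly moved between arrays on this base. Of all names its share ran from 0.874% on control 3 to 1.13% on control 1. miR-429-3p and miR-200a-3p, encoded with it on chromosome 4, held 1.17% ± 0.0458 and 1.09% ± 0.0993. miR-141-3p and miR-200c-3p, the pair encoded on chromosome 6, were dimmer, at 0.181% ± 0.0194 and 0.137% ± 0.0143.

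The endothelium list was led by miR-126a-3p, the endothelial miRNA encoded within Egfl7. It read 6634, 4302, 2623 and 4196, a share of 3.02% ± 0.0946 (SD, n = 4), and ranked 10 among the unmarked names. By the brightest probe its place was 13, or 11 with spots that carry an outlier mark kept. Its share of all names was then 1.52% in place of 1.87%, and 1.31% with normexp background correction. The other name of the list, miR-126a-5p, had a mean signal of 50.1. The smooth muscle pair was lower than miR-126a-3p. miR-143-3p read 500.4, 356, 196 and 351 and miR-145a-5p read 89.6, 66.8, 37.7 and 70.9, together 0.284% ± 0.0206.

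The erythrocyte list had the widest spread in share of the 6 lists with names detected on all 4 arrays. miR-451a, which is matured by Argonaute 2 without Dicer and is abundant in red blood cells, read 8700.4, 5028, 2046 and 2158, a share of 4.01%, 3.38%, 2.35% and 1.60%. Its rank among all names ran from 9 to 20. miR-144-3p, made from the same precursor transcript, read 311, 184, 79.0 and 77.7, and miR-486a-5p, also of red blood cells, read 73.1, 43.1, 13.9 and 11.5. All 3 had their highest share on control 1, followed by controls 2, 3 and 4. Summed with miR-144-5p, which was detected on controls 1 and 2 only, they gave 4.20%, 3.54%, 2.46% and 1.67% (2.97% ± 1.12, SD, n = 4). How much blood each kidney held was not measured.

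The leukocyte list held a small share of the signal. Of 5 names, 4 were detected on all 4 arrays (17.7% of all names were) and miR-150-5p, of mature lymphocytes, on 3. The summed share was 0.429%, 0.375%, 0.268% and 0.294% (0.342% ± 0.0744, SD, n = 4), highest on control 1. miR-142a-3p, found in all blood lineages, read 403, 231, 90.7 and 149, and miR-223-3p of myeloid cells read 309, 221, 104 and 155. Their mean signals of 218 and 197 lay above the median of 154 for the names detected on all 4 arrays. miR-155-5p, induced in activated immune cells, read 87.2, 27.1, 15.9 and 40.9.

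Of 18 names that define other tissues, 14 (77.8%) were detected on no control array, close to the 76.0% of all names, and none was detected on all 4. Of the 5 striated muscle names, miR-1a-3p was detected on 2, at 8.59 and 10.5, and miR-133a-3p, miR-133b-3p, miR-206-3p and miR-208a-3p on none. Of the 5 neural names, miR-124-3p, miR-137-3p and miR-129-5p were detected on none, miR-9-5p on 1 and miR-9-3p on 2, with a highest signal of 13.5. miR-122-5p, the liver miRNA, was detected on control 1 only, at 13.4. miR-375-3p of pancreatic islets and the 6 names of pluripotent cells (miR-290a-3p, miR-291a-3p, miR-292a-3p, miR-294-3p, miR-295-3p and miR-302a-3p) were not detected on any control array.

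**Figure D3:**
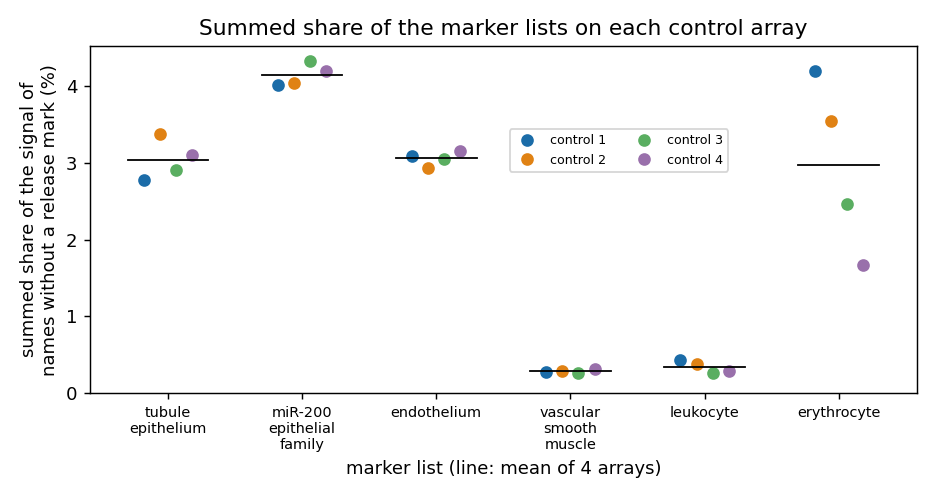
Summed share of the signal of names without a release mark (%) for 6 marker lists, with a dot for each control array and a line for the mean of 4. The erythrocyte list spans 1.67% (control 4) to 4.20% (control 1), while the miR-200 and endothelium lists stay within narrow ranges on this base.

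The raw signal of a miRNA had a median CV (coefficient of variation) of 35.6% between arrays, and scaling each array to its own total or percentile left less than that. For the 181 names detected on all 4 arrays, the median SD of the log2 signal was 0.55 as deposited, 0.19 as a share of all names, 0.13 for unmarked names as a share, and 0.15 relative to the 75th percentile of these names. The software gave a median error of 8.69% for a name on an array, and on that last scale the CV was above the name's error for 98 of the 181 names. The spread was widest for the dimmest names. On that scale the median CV was 8.37% at ranks 1 to 20, 6.59% at ranks 21 to 60, 9.48% at ranks 61 to 120 and 16.3% beyond, with software errors of 7.70%, 7.86%, 8.59% and 13.6%.

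Blood miRNAs and dim names were among those with the widest spread. By SD of the log2 share of all names the 10 widest were miR-188-5p (1.06), miR-486a-5p (1.02), miR-494-3p (0.83), miR-451a (0.71), miR-551b-3p (0.71), miR-155-5p (0.71), miR-144-3p (0.70), miR-142a-5p (0.62), miR-3470a (0.59) and miR-193a-5p (0.58). miR-451a was the only one of these among the 30 brightest. miR-188-5p read 47.6, 23.5, 4.47 and 22.3 and miR-551b-3p read 54.3, 40.2, 10.5 and 43.0, both lowest on control 3. miR-494-3p, at 1350.5, 397, 225 and 298, was high on control 1 alone, where it lay 1.00 above its mean on the log2 scale relative to the 75th percentile. Relative to that percentile, 8 of the 10 widest names were the same. The others on that scale were miR-149-5p (0.63) and miR-1937b_v16.0 (0.52), the brightest of all names.

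Which names were steadiest depended on the scale. By the share of all names the 10 steadiest were miR-22-3p (SD of 0.05), miR-30a-5p (0.06), miR-222-3p, miR-92a-3p, miR-148b-3p, miR-181b-5p, miR-326-3p, miR-331-3p, miR-652-3p and miR-652-5p. Relative to the 75th percentile they were led by miR-143-3p (0.03), let-7e-5p (0.03) and miR-340-5p (0.03), and 0 of the 10 were shared. miR-22-3p had an SD of 0.17 on that scale and miR-143-3p had an SD of 0.18 as a share of all names.

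**Figure D4:**
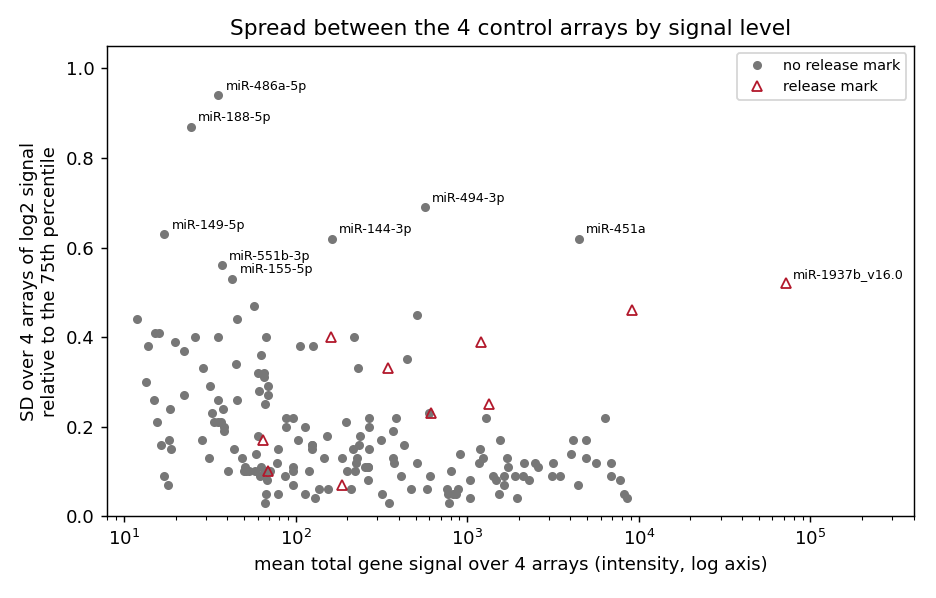
SD over the 4 control arrays of the log2 signal relative to the 75th percentile, against the mean signal (intensity, log axis), for the 181 names detected on all 4, with triangles for names with a release mark. Spread is widest among dim names, and miR-451a and miR-494-3p stand out among brighter ones, with SDs of 0.62 and 0.69. The brightest name, miR-1937b_v16.0, has an SD of 0.52.

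A hairpin yields a 5p and a 3p arm, of which Argonaute usually keeps the arm with the looser 5′ end. Arms were paired by identical names, so hairpins with a locus number in 1 arm name were left out. miR-30c-5p and miR-30c-2-3p, for example, were both detected on all 4 arrays but are not in the counts here. Of the 380 hairpin names with both arms on the array, 152 had a detected arm. The 5p arm was detected on all 4 arrays and the 3p arm on none for 51, and the reverse held for 37. Both arms were detected on all 4 arrays for 16, of which the 3p arm was brighter on every array in 11, the 5p arm in 4 and neither in 1. The median ratio of the brighter to the dimmer arm was 16.1, and 10 of the 16 had a ratio above 10.

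Among these 16, miR-192, of the tubule list, had the most uneven arms. It read 25.0, 21.9, 10.6 and 17.9 for its 3p arm, 169-fold below its 5p arm. miR-200b (128-fold), miR-200a (106-fold), miR-126a (89.2-fold) and miR-29c (62.0-fold) leaned to the 3p arm. Over the 4 arrays the log2 ratio had an SD of 0.05 for miR-192 and 0.04 for miR-200b. The SDs of the 16 hairpins ran from 0.01 (miR-140) to 0.13 (miR-1839), apart from miR-200a (0.36) and miR-193a (0.42). The 5p arms of miR-200a and miR-193a were lowest on control 3, at 7.11 and 5.32. The dimmer arms of miR-192 and miR-200b were lowest on control 3 as well, at 10.6 and 10.4. miR-22 leaned 57.1-fold to the 3p arm, and miR-30a and miR-30e leaned to the 5p arm by 18.2-fold and 14.0-fold.

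In 5 hairpins the arms were closest. miR-455 read 63.4, 56.8, 15.3 and 46.0 for the 5p arm and 61.1, 54.7, 17.2 and 45.9 for the 3p arm, so the brighter arm changed on control 3. miR-140, a regulator of cartilage, had a 1.03-fold higher 3p arm on average, miR-1839 a 1.13-fold higher 3p arm, miR-652 a 1.26-fold higher 5p arm and miR-142a a 3.89-fold higher 3p arm. The 2 arms are read by different probes, so an even signal does not show equal numbers of molecules.

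**Figure D5:**
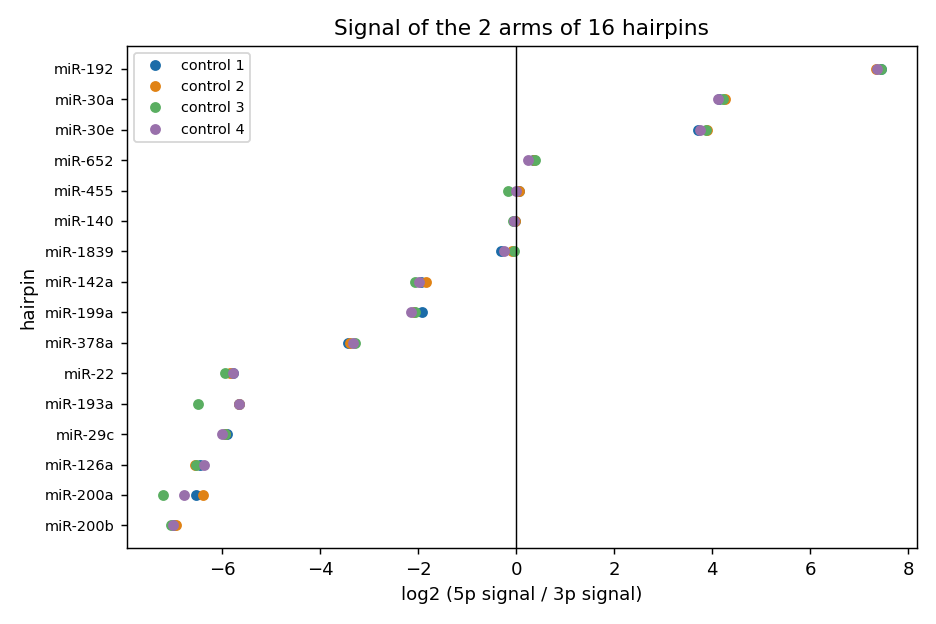
Log2 ratio of the 5p to the 3p signal for the 16 hairpins, with arms paired by name, that had both arms detected on all 4 control arrays. A dot stands for each array and a line for equal signal. miR-192 lies at 7.40 and miR-200b at -7.00 on average, while miR-455, miR-140, miR-1839 and miR-652 lie near 0.

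Many miRNA genes sit in clusters that are transcribed together. With at most 10 kb between neighbours on a strand, RefSeq gave 58 clusters with a name on the array, of which 38 had a detected member and 28 had at least 2 detected on all 4 arrays. The largest summed shares were those of let-7d, let-7f-1 and let-7a-1 on chromosome 13 (12.9% ± 0.294, SD, n = 4), let-7c-2 and let-7b on chromosome 15 (10.5% ± 0.420), miR-29a and miR-29b-1 on chromosome 6 (7.62% ± 0.396), miR-99a and let-7c-1 on chromosome 16 (6.36% ± 0.330), miR-29b-2 and miR-29c on chromosome 1 (6.28% ± 0.338), and let-7f-2 and miR-98 on chromosome X (5.47% ± 0.118). Each holds a mature miRNA that another locus also makes, and its signal is counted at both. Signals within a cluster were unequal. Both arms of a hairpin were counted as members. Between the brightest and the dimmest member detected on all 4 arrays the ratio was 1.23 for let-7c-2 and let-7b and 24.6 for let-7f-2 and miR-98. It was 61.8 for miR-29b-2 and miR-29c, where the dimmest member was miR-29c-5p, the dimmer arm of miR-29c. Outside these 6 clusters it was 168 for miR-194-2 and miR-192 on chromosome 19, with miR-192-3p as the dimmest.

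The first base varied with the level of detection. U was the first base of 55.0% of the miRNAs detected on all 4 arrays and of 73.1% of the 60 brightest, of 26.5% of those detected on 1 to 3 arrays and of 32.3% of those detected on none. A 5′ U is favoured by Argonaute proteins. The median GC content was 45.5% for those on all 4 arrays, 47.8% for those on 1 to 3 and 40.9% for the 60 brightest. Names with a number up to 100, the first to be described, were detected on all 4 arrays in 54 of 127 cases (42.5%) and held 71.3% of the signal, whereas names above 1000 were detected in 13 of 230 (5.65%).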

How the data were processed

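Agilent Feature Extraction 10.7.3.1 made the scanner files that the authors deposited, per the file headers. Their total gene signal is a background-subtracted intensity, set to 0.1 where no probe is detected, and was not normalised between arrays. The deposited value table held the same intensity in 100.0% of cells (relative tolerance 1e-06). The labels name no separate animals, and all 4 arrays lay on 1 slide. Spots of control type and of other species were left out. Shares, ranks, SDs and CVs were computed with Python 3.11.15, numpy 2.4.6 and pandas 2.3.3. The normexp alternative used R 4.3.3 and limma 3.58.1, with an offset of 50. The calculations were tested on simulated data. No spot was saturated, and 8.07% to 11.2% of spots carried an outlier mark.

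The members and lists were chosen with earlier results of these data known. The text names the 30 brightest miRNAs, marker list members, the 10 widest and 10 steadiest in share, the 5 names on each side of the detection border, the 6 leading seeds and clusters, the 5 most and least even hairpins and hairpins of the 30 brightest. Names with a release mark, miR-211-3p, miR-30c-2-3p and the miRNAs singled out in scale comparisons were chosen after their values were seen. The number of arrays limits the precision.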

Additional observations from a re-analysis of the deposited data

Results flagged for a closer look

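Among 61 named miRNAs detected on all 4 arrays, 2 had an array that stood apart from the other 3, on the log2 scale relative to the 75th percentile. miR-193a-5p, a dim name at 25.2, 17.6, 5.32 and 15.7 on controls 1 to 4, was lower on control 3, at -0.82 from the mean of the other arrays. miR-126a-5p, at 75.6, 45.6, 28.3 and 50.7, was lower on control 2, at -0.19. Chance alone marks about 1 in 20 such groups, or 3.05 of 61.

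The array also carries 57 names of other species, which no comparison used. Of these, 3 names of mouse cytomegalovirus miRNAs were detected. mcmv-miR-M23-1-5p read 344, 267, 183 and 228 on controls 1 to 4, and mcmv-miR-m88-1-3p read 169, 128, 88.9 and 119. mcmv-miR-m22-1 was detected on controls 1 and 4, at 13.7 and 8.34. What these probes bound was not tested.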

How the results depend on the processing

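Of 198 values recomputed under an alternative, 154 stayed within the spread between arrays (counts and median SDs within 1.5 times) and 44 moved. Part of the 154 was fixed in advance. Leaving out 1 of 4 arrays cannot move a mean share by a full SD of the 4. The deposited value table held the same signal, so its values could only stay as well. Without the names that carry a release mark, an alternative chosen after seeing the data, the brightest name held 5.81% in place of 32.3%, the 10 brightest 44.1% in place of 59.7%, the let-7 seed 29.1% in place of 18.1% and the miR-29 seed 11.0% in place of 6.78%. With normexp background correction, which leaves a positive value for undetected probes, the 10 brightest held 50.8%, 351 names were needed for 90% in place of 44, and the let-7 and miR-29 seeds held 15.5% and 5.68%. The median SD of 0.187 became 0.545 without scaling between arrays and 0.388 without the filter on detection. Counting hairpins with both arms detected on at least 1 array gave 32 in place of 16. Leaving out each control in turn gave a median SD of 0.120 (without control 1) to 0.215. The other leave-one-out ranges were 30.4% to 35.6% for the brightest name, 58.2% to 62.0% for the 10 brightest, 16.9% to 18.7% for let-7, 6.50% to 6.92% for miR-29, 181 to 209 detected names and 16 to 24 hairpins. Without control 3, the 5p arm was brighter in 9 hairpins in place of 4. The cause of these changes was not tested beyond the construction of each alternative. No paired analysis was possible because 1 group was analysed and no test was made. Signal over background limits names near the detection border, and 4 arrays limit every SD.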

Other observations

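Of all names, 17.7% were detected on all 4 control arrays, and the share differed between chromosomes. Of the names with a RefSeq gene on chromosome 12, which carries the imprinted Dlk1-Dio3 cluster, 4 of 133 (3.01%) were detected on all 4. The next lowest shares were on chromosomes 7 (9.21%) and 3 (10.8%). On chromosome 1 the share was 17 of 43 (39.5%), on chromosome 11 it was 25 of 69 (36.2%), and chromosome X, with 22 of 125 (17.6%), was near the share of all names. Of the miRNAs detected on all 4 arrays, 48.3% lay in a cluster, against 41.5% of those detected on none.

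The length of a probe moved with its signal. For 184 pairs of probes of the same name that differ by 1 base at the end that meets the 5′ side of the miRNA, the longer probe was brighter on all 4 arrays in 172 pairs and the shorter in 6. The median ratio was 2.33.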
